A study of Homo sapiens with 6 samples.

Results

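The Frizzled proteins, the co-receptors LRP5 and LRP6 and the receptor tyrosine kinase ROR1 receive WNT signals at the cell surface. Their transcripts were examined in cultured MDA-MB-231 cells, an established human line from triple-negative breast cancer. The members were chosen by symbol from a list of 10 receptor genes (FZD1, FZD2, FZD4, FZD5, FZD6, FZD7, FZD8, LRP5, LRP6 and ROR1), and all 10 were found among the 15706 genes of the deposited table. The list was proposed with results of this same comparison known, and the table holds only genes with at least 1 read in every library. The differences of the members between the groups are therefore described without a p-value, and they support nothing by themselves. RNA was sequenced from 6 libraries of untreated cells grown in DMEM with serum. The 3 control libraries carried a non-targeting guide RNA (sgNT) and are labelled wild type. The 3 knockout libraries carried a guide against MLL3 (sgMLL3) and are labelled MLL3 knockout. MLL3, whose approved symbol is KMT2C, is a histone H3 lysine 4 methyltransferase that acts mainly at enhancers. The labels call the libraries of each group biological replicates 1 to 3. Clonal or pooled origin of the cells is not stated, nor whether the numbered guides differed, so p-values measure only the spread between these libraries.

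A WNT protein binds the extracellular cysteine-rich domain of a Frizzled, a receptor that crosses the membrane several times. In the beta-catenin pathway the ligand also binds LRP5 or LRP6, and Dishevelled, recruited to the Frizzled tail, helps to disable the complex that destroys beta-catenin. ROR1 binds WNT5A and signals without beta-catenin, and in breast cancer cell lines it is known mainly from basal-like and mesenchymal lines such as this one. FZD1, FZD2 and FZD7 form one subfamily, FZD5 and FZD8 another, FZD4 belongs with FZD9 and FZD10, and FZD6 with FZD3.

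The ends of 5 Frizzled coding sequences are shown because the 3 Frizzleds called lower in the knockout libraries, FZD1, FZD2 and FZD7, are the closest relatives in the set, with FZD5 and FZD4 beside them. Each runs from the codons of the KTxxxW motif, through which Frizzleds bind Dishevelled, to the last codon before the stop, and the motif codons are in capitals. The sequences were read from GENCODE 29 transcripts (GRCh38).
FZD1: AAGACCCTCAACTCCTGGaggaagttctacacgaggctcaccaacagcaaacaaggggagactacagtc
FZD2: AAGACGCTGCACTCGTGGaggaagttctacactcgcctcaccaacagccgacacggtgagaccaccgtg
FZD7: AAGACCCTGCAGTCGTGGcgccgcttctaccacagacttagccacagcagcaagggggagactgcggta
FZD5: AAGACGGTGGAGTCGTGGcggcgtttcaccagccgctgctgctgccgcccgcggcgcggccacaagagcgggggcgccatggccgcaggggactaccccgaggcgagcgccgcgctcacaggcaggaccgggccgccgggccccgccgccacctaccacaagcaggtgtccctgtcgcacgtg
FZD4: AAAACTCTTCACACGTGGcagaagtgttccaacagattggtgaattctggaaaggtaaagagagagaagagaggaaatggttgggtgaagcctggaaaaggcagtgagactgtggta

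The tails of FZD1, FZD2 and FZD7 were all 69 bases long, against 183 in FZD5 and 117 in FZD4. Of these 69 bases, 14 differed between FZD1 and FZD2, 23 between FZD1 and FZD7 and 24 between FZD2 and FZD7. Over the aligned coding sequence FZD1 and FZD2 were 81.4% identical, FZD1 and FZD7 82.1%, and FZD2 and FZD7 82.6%. FZD5 and FZD8 were 79.3% identical, and LRP5 and LRP6 67.0%. FZD6 was the most distant Frizzled, at 56.2% to 61.3% identity with each of the other 6.

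Such likeness matters for read counting where a stretch is identical in 2 genes. The longest runs shared within the FZD1, FZD2 and FZD7 subfamily are shown for that reason, since a read that falls wholly inside one could have come from either gene. The first spans 81 bases (coding positions 1182 to 1262 of FZD1, 957 to 1037 of FZD2), and the second 69 bases (100 to 168 of FZD2, 130 to 198 of FZD7), counted from 1 at the first base of the start codon.
FZD1 and FZD2: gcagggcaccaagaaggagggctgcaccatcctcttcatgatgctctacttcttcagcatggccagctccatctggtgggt
FZD2 and FZD7: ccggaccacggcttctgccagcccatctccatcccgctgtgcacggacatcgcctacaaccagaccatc

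Windows of 50 bases that also occur in the transcripts of another gene made up 0.463% of the longest FZD1 transcript, 2.67% of FZD2 and 0.525% of FZD7. In FZD5, FZD6, FZD8, LRP5, LRP6 and ROR1 the share was between 0 and 0.854%. FZD4 stood apart at 18.4%. Its exons overlap those of PRSS23, a serine protease gene on the opposite strand, over 1399 bases. PRSS23 averaged 25109 ± 763 normalized counts in the control and 24778 ± 344 in the knockout libraries (SD, n = 3 each), far above FZD4. The strand setting of the counting is not given in the sources used here, so reads of FZD4 and PRSS23 may not be told apart.

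Levels are normalized read counts, that is, reads divided by 1 size factor per library. The libraries held 41240265 to 49514464 reads in the listed genes. KMT2C itself was read at 1367, 1379 and 1255 counts in control replicates 1, 2 and 3 and at 1519, 1660 and 1339 in the knockout replicates (log2 difference 0.17, SE 0.10, limma adjusted p = 0.2), so the transcript gave no check of the label. Fold changes compare log2(value + 1), knockout minus control, with the standard error (SE) of a limma fit that took in 14618 genes, those averaging at least 10 counts. A gene is called where its Benjamini-Hochberg adjusted p over all of these is under 0.05. All 10 members passed that filter, which is on the mean of all 6 libraries. The fold changes of all genes followed GC content (Spearman's rho = -0.673 across 14598 genes, which are not independent replicates). Values are therefore also given after a trend along GC content and transcript length was removed from each library, called trend removal below. Fold changes called as deposited are from the limma fit on the deposited counts without that step, and are not the submitters' own.

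In the knockout libraries 3 Frizzleds of one subfamily stood lower, and FZD6 and LRP6 stood higher. FZD7, which is studied in triple-negative breast cancer as a receptor for beta-catenin signalling, had 4162, 3436 and 3327 normalized counts in control replicates 1, 2 and 3. In the knockout replicates it was read at 2047, 2495 and 2536. The lowest control library lay above the highest knockout library, and control replicate 1 was the highest of all. The mean went from 3642 ± 454 to 2359 ± 271 (SD, n = 3 each), a log2 change of -0.63 (SE 0.10), and of -0.51 (SE 0.099) after trend removal. FZD7 is an intronless gene of 3859 bases (ENSG00000155760.2, chromosome 2, 202034587 to 202038445 on GRCh38, plus strand).

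FZD1, a receptor of the same subfamily encoded by a single exon on chromosome 7 (91264364 to 91271326, plus strand), was read at 3311, 2953 and 3012 counts in the control libraries. The knockout libraries held 2269, 2389 and 2105 counts. The groups did not overlap, and the SD of neither group exceeded 6.33% of its mean. The log2 change was -0.46 (SE 0.089) as deposited and -0.50 (SE 0.066) after trend removal, so that of the lowered members FZD1 was the one whose difference did not shrink.

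FZD2, the third of the subfamily (chromosome 17, 44557459 to 44559570, plus strand, 1 exon), was read at 6067, 5865 and 6650 counts in the control and at 4492, 4542 and 5039 in the knockout libraries. The highest knockout library, replicate 3, was still below the lowest control library. The log2 change of -0.40 (SE 0.084) shrank to -0.15 (SE 0.051) after trend removal, where FZD2 was no longer called. For FZD2 that step used the GC content and length of a GENCODE model of 2112 bases, against a RefSeq span of 3779 bases. How far the shrinkage and the lost call rest on this short model was not tested.

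FZD6, a Frizzled known mainly from planar cell polarity and from restraint of beta-catenin signalling (chromosome 8, 103298433 to 103332866, plus strand, 7 exons), went the other way. It was read at 3729, 3260 and 3120 counts in the control libraries and at 5584, 5114 and 4947 in the knockout libraries. All 3 knockout libraries lay above all 3 control libraries, and within each group replicate 1 was the highest. The log2 change was 0.63 (SE 0.089), or 1.55-fold in mean counts. After trend removal it was 0.23 (SE 0.057), still called. In that analysis the call was lost when control replicate 2 (0.19) or 3 (0.23), or knockout replicate 1 (0.23), 2 (0.25) or 3 (0.22), was left out. An antisense gene, BAALC-AS1, overlaps FZD6 exons over 138 bases and was read at 71.1 ± 16.6 and 59.2 ± 11.5 counts (SD, n = 3 each).

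**Figure D1:**
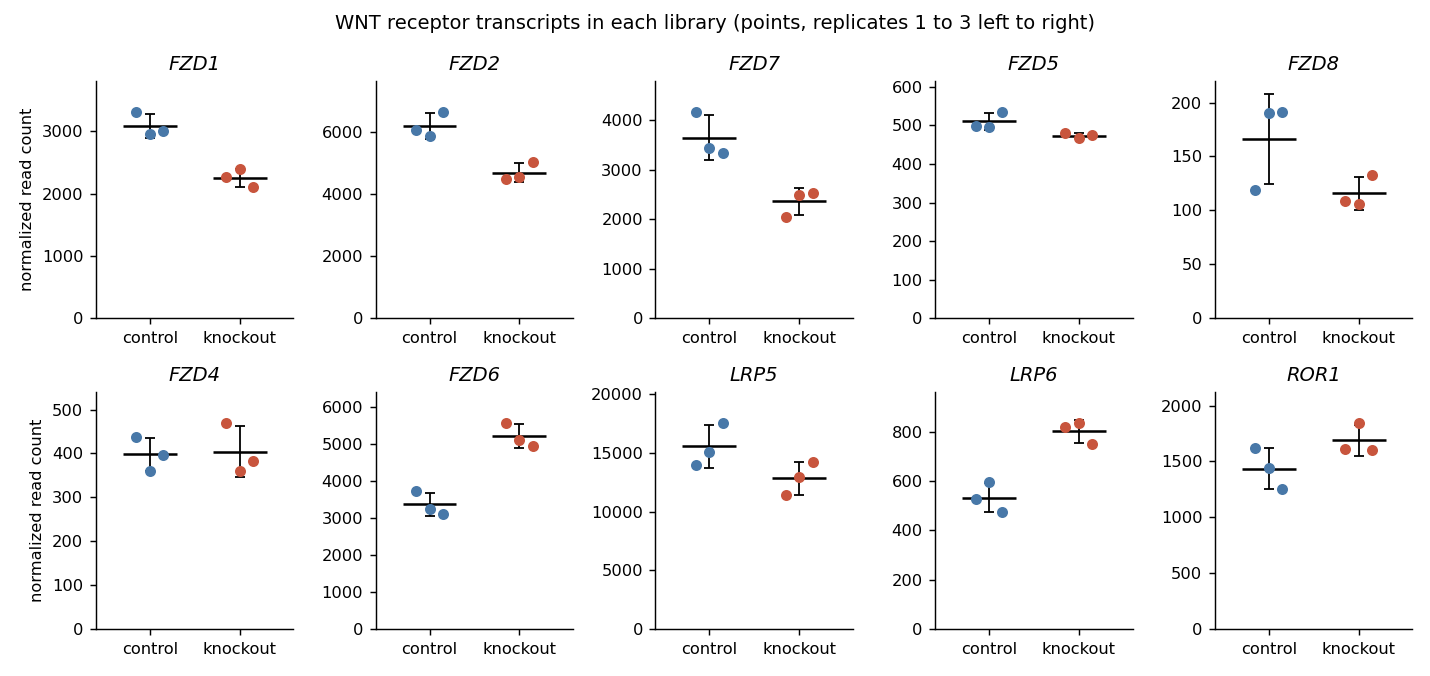
Normalized read counts (y axes, each from 0) of the 10 receptor genes in 3 control and 3 knockout libraries. Points are libraries, bars the mean and whiskers the SD. FZD1, FZD2 and FZD7 lie lower and FZD6 and LRP6 higher in all 3 knockout libraries.

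FZD5 and FZD8, the other close pair, differed less clearly. FZD5, a receptor that carries beta-catenin signals in the gut (chromosome 2, 207762586 to 207769563, minus strand), was read at 499, 497 and 535 counts in the control and at 480, 467 and 474 in the knockout libraries. Its groups did not overlap, yet its log2 change was only -0.11 (SE 0.12) and it was not called. FZD8 (chromosome 10, 35638249 to 35642278, minus strand, 1 exon) was the scarcest member, with 103 to 198 reads per library, at whose mean counting alone gives a coefficient of variation of 8.39%. It was read at 118, 190 and 191 counts in the control and at 109, 105 and 133 in the knockout libraries. Control replicate 1 lay among the knockout values, whereas the other two control libraries lay above them. The log2 change was -0.50 (SE 0.21) and was not called. Without control replicate 1 it was -0.72, and called.

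FZD4, which also binds the non-WNT ligand Norrin (chromosome 11, 86945679 to 86955391, minus strand), was read at 436, 361 and 397 counts in the control and at 470, 361 and 382 in the knockout libraries. The groups overlapped throughout. Its log2 change was 0.017 (SE 0.14) as deposited and -0.091 (SE 0.13) after trend removal, so its sign depended on the scaling.

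The 2 co-receptors moved apart. LRP5, a large single-pass receptor that with a Frizzled forms the beta-catenin signalling complex (chromosome 11, 68312609 to 68449275, plus strand, 23 exons), was the member with the most reads. It was read at 13991, 15110 and 17596 counts in the control and at 11426, 12946 and 14211 in the knockout libraries. Knockout replicate 3 lay above control replicate 1, so the groups overlapped. The log2 change was -0.27 (SE 0.095) and was called, but the call was lost without control replicate 2 (-0.29) or 3 (-0.18) and without knockout replicate 1 (-0.19) or 2 (-0.28), and also under quantile normalization (-0.20). It was -0.063 (SE 0.054) after trend removal.

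LRP6, its paralogue (chromosome 12, 12116025 to 12267012, minus strand, 23 exons), was read at 528, 596 and 475 counts in the control and at 818, 837 and 749 in the knockout libraries. No control library reached the lowest knockout library. The log2 change was 0.59 (SE 0.12), called as deposited, and 0.18 (SE 0.091), not called, after trend removal. In reads of the same library, LRP6 stood to LRP5 at 0.0377, 0.0395 and 0.0270 in the control and at 0.0716, 0.0646 and 0.0527 in the knockout libraries, so that LRP5 had the more reads in all 6.

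ROR1 (chromosome 1, 63774022 to 64181498, plus strand, 9 exons) was read at 1617, 1441 and 1251 counts in the control and at 1611, 1847 and 1604 in the knockout libraries. Control replicate 1 lay among the knockout values. The log2 change of 0.24 (SE 0.11) was not called and was 0.037 (SE 0.082) after trend removal. It was 0.33 without control replicate 1, and then called, but 0.14 without control replicate 3 and 0.17 without knockout replicate 2, not called.

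In all, 2 of the 10 members were called higher, against 18.9% of all genes tested, and 4 were called lower, against 14.4%. Calls in either direction numbered 6 of 10, against 33.2% of all genes. The groups did not overlap for 6 of the 10 members, against 46.3% of all genes. These are not the same 6, since LRP5 was called with overlapping groups and FZD5 was not called without overlap. After trend removal 1 member was called higher (FZD6, against 4.07% of all genes) and 2 lower (FZD1 and FZD7, against 5.93%), together 3 of 10 against 10.0%. Among the genes called, the share of higher ones was 56.8% as deposited and 40.7% after trend removal. Nothing is read from the members' counts, because the list was proposed from this comparison. The median log2 change was -0.19 for the members and -0.017 for all genes, and -0.088 and -0.018 after trend removal. FZD1 was called in every alternative run, and FZD7 in all but 1 of 23. The exception for FZD7 was trend removal without knockout replicate 1 (-0.43).

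**Figure D2:**
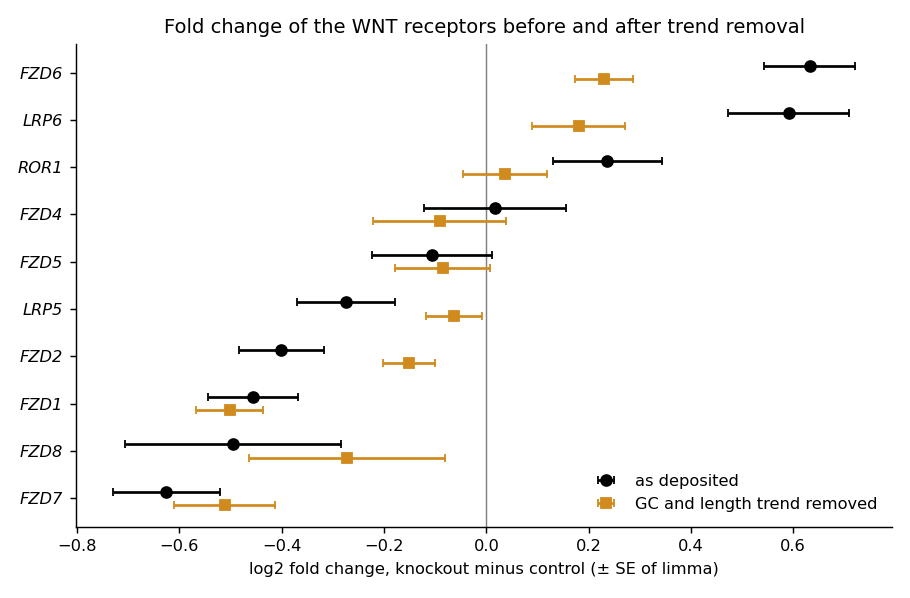
Log2 fold change from limma, knockout minus control (x axis), of each receptor gene, on the counts as deposited (circles) and after removal of the GC and length trend (squares). Whiskers are SE from limma, 3 libraries per group. FZD1 moves slightly away from 0, and FZD7 and FZD5 slightly toward it. FZD6, LRP6, FZD2, LRP5, FZD8 and ROR1 move further toward 0, and FZD4 changes sign.

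The GC content of the members' longest transcripts ran from 38.4% in FZD6 and 40.2% in LRP6 to 62.8% in LRP5, 64.6% in FZD8 and 64.9% in FZD2. Their order by GC content was close to the reverse of their order by fold change, with a Spearman rho of -0.806 over the 10 members as deposited and -0.661 after trend removal, given as a description. FZD6 lies in the lowest decile of genes by GC content, where the median log2 change was 0.44 and the quartiles 0.27 and 0.60, and its own change of 0.63 was just above the upper quartile. LRP6 lies in the second decile (median 0.38, quartiles 0.19 and 0.55) and was also just above. LRP5 was close to the median of the highest decile (-0.27, quartiles -0.37 and -0.16), while FZD2 and FZD8 in the same decile lay below its lower quartile. The GC content of FZD2 is that of a GENCODE model of 2112 bases, 1695 of them coding. In coding sequence alone, FZD1, FZD2 and FZD7 had 65.5%, 65.1% and 65.8% GC. The decile of FZD2, its value after trend removal, and with them the rho over the members, therefore rest on that short model. FZD1, at 47.7% GC, lies where the median was 0.017 and the quartiles -0.12 and 0.19, far above its own -0.46. FZD7, at 52.8%, lies where the median was -0.16 and the quartiles -0.26 and -0.041. How much of the members' differences goes with base composition was not tested beyond trend removal.

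**Figure D3:**
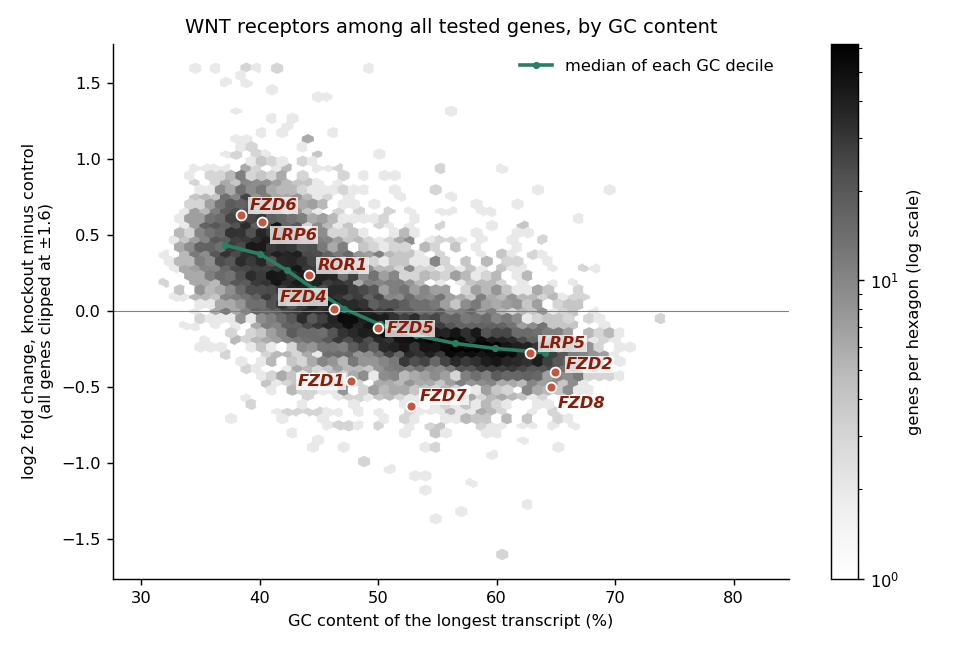
Log2 fold change, knockout minus control, against the GC content of the longest transcript for 14598 genes (grey hexagons, shade by number on a log scale; values beyond 1.6 drawn at that edge), with the median of each GC decile as a line. FZD6 and LRP6 lie at the upper left and FZD1 and FZD7 below the line, FZD1 at 47.7% GC.

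Compared per kilobase of the longest transcript, LRP5 and FZD2 were the most abundant receptors. In the control libraries LRP5 stood at 3017 ± 358 normalized counts per kilobase and FZD2 at 2933 ± 193 (SD, n = 3 each), with overlapping ranges. FZD7 (944 ± 118) and FZD6 (890 ± 84.3) followed, also with overlapping ranges. Below them came FZD1 (444 ± 27.6), ROR1 (246 ± 31.4) and FZD5 (76.1 ± 3.20), each apart from its neighbours. FZD4 (53.9 ± 5.11) overlapped LRP6 (53.2 ± 6.05), and LRP6 overlapped FZD8 (41.3 ± 10.3), whereas every FZD4 value lay above every FZD8 value. In the knockout libraries FZD6 (1377 ± 87.1) stood above FZD7 (611 ± 70.3) in all 3 libraries without overlap, and LRP6 (79.9 ± 4.62) stood above FZD5 (70.6 ± 0.940). FZD1 (324 ± 20.5) and ROR1 (289 ± 23.7) overlapped there. The FZD2 model in GENCODE 29 is 2112 bases long and has little untranslated sequence, whereas the RefSeq span of this gene is 3779 bases. On that span FZD2 stood at 1639 ± 108 counts per kilobase in the control and 1241 ± 80.1 in the knockout libraries. LRP5 then lay clear of it, and FZD2 lay below FZD6 on average in the knockout libraries, with overlapping ranges.

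In read counts, FZD6 stood to FZD7 at 0.896, 0.949 and 0.938 in control replicates 1, 2 and 3, and at 2.73, 2.05 and 1.95 in the knockout replicates. FZD7 thus had the more reads in each control library and FZD6 in each knockout library. The summed Frizzled level per kilobase covers the 7 Frizzled members and leaves out FZD3, which is not a member. Of this sum, FZD2 made up 54.5% ± 3.14 in the control and 47.4% ± 1.98 in the knockout libraries (SD, n = 3 each). FZD6 made up 16.5% ± 1.29 and 29.4% ± 2.38, and FZD7 17.5% ± 1.77 and 13.03% ± 1.35. FZD1 made up 8.25% ± 0.298 and 6.92% ± 0.570, and FZD4, FZD5 and FZD8 each less than FZD1 in every library. With RefSeq spans for the single-exon genes the FZD2 share was 41.6% ± 3.04 and 34.3% ± 1.89, and FZD6, at 38.1% ± 2.63, was then the largest share in the knockout libraries on average. The sum itself was 5574, 5122 and 5448 in the control and 4619, 4635 and 4807 in the knockout libraries. These are shares and sums of bulk RNA, in which fewer cells with a transcript and less transcript per cell cannot be told apart.

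**Figure D4:**
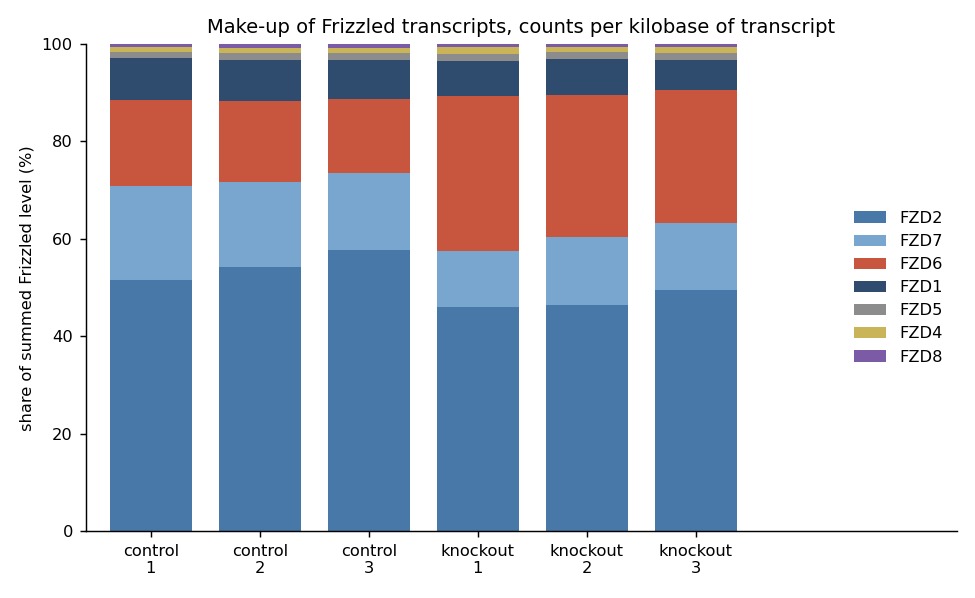
Share (y axis, %) of each Frizzled member in the summed level of the Frizzled members of each library, in normalized counts per kilobase of the longest GENCODE transcript. FZD3 is not in the sum. The FZD6 share is 15.1% to 17.7% in the control and 27.2% to 31.9% in the knockout libraries.

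FZD6 had the largest absolute fold change among the members as deposited (0.6323), ahead of FZD7 (-0.6255) by less than the SE of either. FZD7 was ahead under TMM scaling (-0.6301 against 0.6276) and in edgeR (-0.6309 against 0.6248), and FZD7 and FZD1 both were after trend removal. Over the 6 libraries the genes with the most similar log2 levels to FZD6 were ELP2 (Pearson r = 0.9992), SF3B1 (0.9992) and ATR (0.9988). As many as 1226 of 12444 genes compared had an r above 0.95, so the likeness is shared widely and the 6 points share the group difference.

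The other genes of the pathway were taken from 8 lists of receptors, ligands, modulators, intracellular components and targets. The shares to read their counts against are those of all genes tested, 18.9% higher and 14.4% lower as deposited and 4.07% and 5.93% after trend removal. Of 10 other WNT receptors and co-receptors tested, 1 was higher and 0 lower in limma. It was FZD3, the closest relative of FZD6, which rose from 83.0 ± 8.63 to 134 ± 3.09 normalized counts (SD, n = 3 each; log2 change 0.69, SE 0.20, limma adjusted p = 0.014) and stood at 0.20 (limma adjusted p = 0.54) after trend removal. At an unadjusted p under 0.05, limma gave 3 higher and 1 lower. Calls were 2 higher and 0 lower in edgeR, and 3 and 0 in DESeq2. PTK7, a pseudokinase co-receptor chosen after its values were seen, was the 1 member called after trend removal (0.28, limma adjusted p = 0.016). The median of this list was 0.012. FZD9, FZD10 and ROR2 were not analysed here.

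Among WNT ligands and the proteins that secrete them, 0 of 8 tested were higher and 2 lower (at an unadjusted p under 0.05 in limma also 0 and 2, and 0 and 2 in both edgeR and DESeq2). WNT5B, a ligand of beta-catenin-independent signalling, fell from 3071 ± 391 to 2229 ± 256 counts (-0.46, SE 0.11, limma adjusted p = 0.0036). WNT7B fell from 859 ± 93.9 to 671 ± 85.4 (-0.36, SE 0.12, limma adjusted p = 0.032). After trend removal they stood at -0.24 and -0.13 (limma adjusted p = 0.073 and 0.51), and limma called 0 members (0 higher and 1 lower at an unadjusted p under 0.05). WNT5A, the ligand of ROR1, was not analysed here. Of 8 secreted or membrane WNT modulators 0 were higher and 1 lower in limma, the same at an unadjusted p under 0.05, in edgeR and in DESeq2. TRABD2A, a membrane protease that inactivates WNT proteins, averaged 249 ± 31.9 counts in the control and 156 ± 25.6 in the knockout libraries. It fell by 0.68 (SE 0.18, limma adjusted p = 0.0078), and by 0.72 after trend removal (limma adjusted p = 0.018). DKK1, a secreted antagonist of LRP5 and LRP6 and a gene chosen after its values were seen, was the most abundant of them at 17884 ± 3412 and 19117 ± 1290 counts (0.11, SE 0.11, limma adjusted p = 0.45).

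Genes of receptor turnover and maturation counted 5 higher and 3 lower of 17, where 18.9% and 14.4% of all genes were called, with a median log2 change of 0.13 (-0.032 after trend removal). CAPRIN2, a cofactor of LRP6 phosphorylation, rose from 1498 ± 65.1 to 2227 ± 62.9 counts (0.57, SE 0.089, limma adjusted p = 0.00021). CSNK1G3, one of the membrane-bound kinases that phosphorylate LRP6, rose by 0.51 (SE 0.11, limma adjusted p = 0.0023), whereas its paralogue CSNK1G2 fell by 0.33 (SE 0.089, limma adjusted p = 0.0099). AP2M1, a clathrin adaptor subunit used in Frizzled and LRP6 uptake, fell by 0.24 (SE 0.076, limma adjusted p = 0.023). None of these 4 was called after trend removal, when they stood at 0.16, 0.091, -0.098 and -0.036. The list then counted 0 higher and 1 lower (0 and 2 at an unadjusted p under 0.05). That 1 was CCNY, the cyclin that with CDK14 phosphorylates LRP6, named after its values were seen (-0.35, limma adjusted p = 0.0057).

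Components of the cytoplasmic beta-catenin pathway counted 4 higher and 6 lower of 19, against 18.9% and 14.4% of all genes, with a median log2 change of -0.13 (-0.086 after trend removal). APC, a scaffold of the destruction complex, rose from 693 ± 132 to 1231 ± 87.6 counts (0.84, SE 0.13, limma adjusted p = 0.00015), and TNKS2, a tankyrase that marks AXIN for degradation, by 0.51 (SE 0.088, limma adjusted p = 0.00051). DVL2, a Dishevelled, fell from 6792 ± 281 to 4999 ± 470 counts (-0.45, SE 0.085, limma adjusted p = 0.001). APC2, a paralogue of APC, fell by 0.41 (SE 0.11, limma adjusted p = 0.01). After trend removal 2 were higher and 2 lower. APC (0.41, limma adjusted p = 0.02), TNKS2 (0.22, 0.031) and DVL2 (-0.22, 0.029) were then still called and APC2 was not (-0.27, 0.083). The second lower gene was GSK3B (-0.28, limma adjusted p = 0.035), a kinase of the destruction complex named after its values were seen.

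Of 15 nuclear partners of beta-catenin 0 were higher and 6 lower in limma (2 and 6 at an unadjusted p under 0.05, 0 and 6 in edgeR, 1 and 6 in DESeq2), against 18.9% and 14.4% of all genes. The median log2 change was -0.21, and -0.12 after trend removal. TLE1, a Groucho co-repressor, fell by 0.36 (SE 0.080, limma adjusted p = 0.0032), and CTNNBIP1, an inhibitor of the beta-catenin and TCF contact, by 0.36 (SE 0.084, limma adjusted p = 0.004). Neither was called after trend removal (-0.16 and -0.17, limma adjusted p = 0.062 and 0.11). That left 0 higher and 1 lower (1 and 7 at an unadjusted p under 0.05), against 4.07% and 5.93% of all genes. Of 12 known target genes of beta-catenin that could be tested, limma called 0 in either direction, as did edgeR and DESeq2, and at an unadjusted p under 0.05 limma gave 1 higher and 1 lower. Their median log2 change was -0.020, close to that of all genes. AXIN2, the most widely used target and chosen after its values were seen, was scarce at 39.9 ± 4.81 and 41.5 ± 16.2 counts (-0.0096, SE 0.33, limma adjusted p = 0.99), with a wide spread among the knockout libraries. LEF1, also scarce at 24.8 ± 2.87 and 42.25 ± 5.96 counts, was higher (0.74, limma adjusted p = 0.085), and ZNRF3 (-0.25, 0.094) and BAMBI (-0.23, 0.25) were lower. Their groups did not overlap, as in 46.3% of all genes, but none was called. These genes were also named after their values were seen.

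Genes of planar polarity and other beta-catenin-independent branches counted 2 higher and 3 lower of 16 as deposited and 2 and 3 after trend removal, with WNT5B lost and VANGL1 gained among the lower ones. ROCK2 and ROCK1, kinases downstream of RHOA, rose by 0.81 (SE 0.11, limma adjusted p = 5.5e-05) and 0.59 (SE 0.090, limma adjusted p = 0.00018). SCRIB, a polarity scaffold, fell from 11264 ± 640 to 8124 ± 985 counts (-0.48, SE 0.090, limma adjusted p = 0.00093). WNT5B, given above, is also in this list. After trend removal ROCK2 stood at 0.40 (limma adjusted p = 0.0067), ROCK1 at 0.19 (0.05, just under the threshold) and SCRIB at -0.27 (0.0075). WNT5B stood at -0.24 (0.073) and VANGL1, a core polarity protein named after its values were seen, at -0.35 (0.0023).

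**Figure D5:**
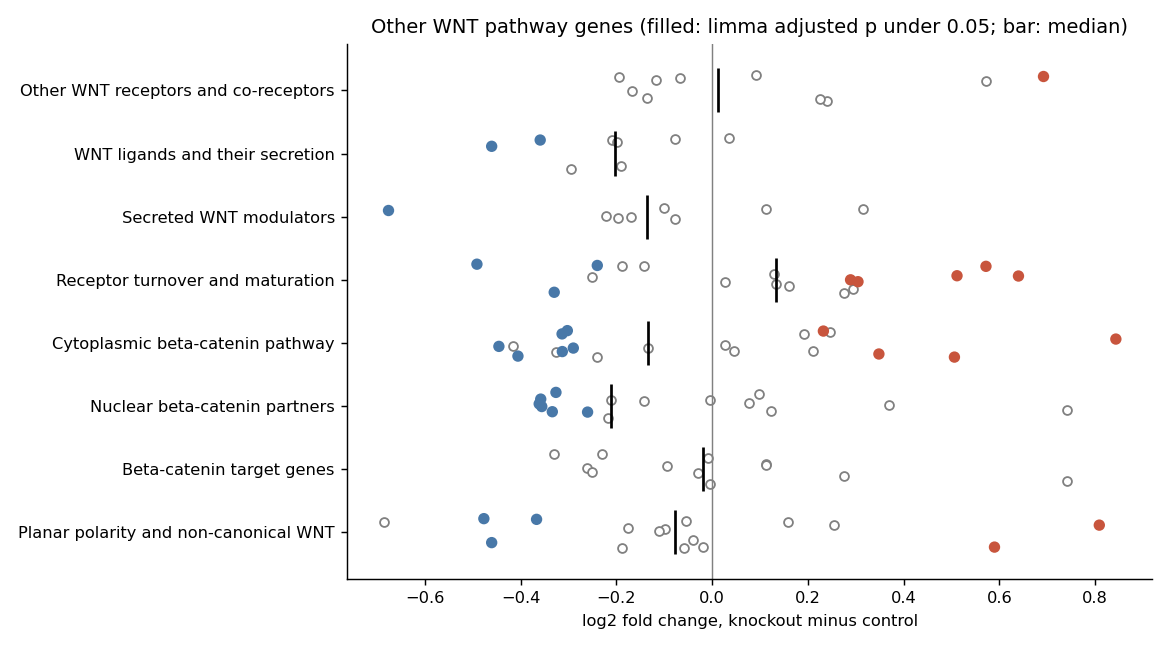
Log2 fold change, knockout minus control (x axis), of the other WNT pathway genes with a mean of at least 10 counts, by list. Filled points passed a limma adjusted p of 0.05, red higher and blue lower, and the bar is the median of the list. The nuclear partners have 6 filled points, all lower, and the target genes none.

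The defining markers of the line were all 10 listed, with a summed level of 206845 to 211168 counts in the control and 194615 to 199000 in the knockout libraries. Of these 10, limma called 2 higher and 1 lower, against 18.9% and 14.4% of all genes. Their median log2 change was -0.024, so the lower sum does not hold for each marker. Among luminal breast markers ESR1, PGR and FOXA1 were not analysed here and CDH1 was read at 5.59 ± 1.84 and 4.02 ± 1.73 counts (SD, n = 3 each). Of 8 leukocyte markers 6 were listed, and their sum was 991 to 1362 counts in the control and 715 to 937 in the knockout libraries. Of 8 fibroblast markers 3 were listed (1038 to 1163 and 756 to 864), and of 8 endothelial markers 4 (4084 to 5262 and 3562 to 4152, most of it ESAM). Luminal markers, 7 of 10 listed, summed to 33160 to 36069 and 26324 to 30731. Most of the luminal sum was KRT19, a keratin (26872 ± 1275 and 22124 ± 1895). The sum of the line's own markers and the leukocyte, fibroblast and luminal sums were lower in every knockout library than in any control library, as FZD1, FZD2 and FZD7 were, whereas the endothelial sums overlapped. Their part in the receptor differences was not tested.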

How the data were processed

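Per the submitters' processing notes, the genome was GRCh38.p13, and the tools named are FastQC, STAR 2.4.0, DESeq2 1.30.1 and featureCounts 1.5.0. The authors deposited 1 table of normalized read counts by gene and library, a signal obtained by dividing reads by 1 size factor per library. Per the file headers it also holds their log2 fold change and its SE, a statistic as a score, and p-values, none of which are printed here. All values were whole multiples of 1 step per library (100% within 0.01), which gave back the reads.

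Differences were tested, two-sided, on log2(value + 1) with limma 3.58.1 in R 4.3.3 (trended prior variance), for genes averaging at least 10, with Benjamini-Hochberg adjustment. GC content, length, coordinates and sequences come from GENCODE 29 on GRCh38, which held 15681 of the 15706 gene IDs. For trend removal, natural splines with 5 terms each of GC content and log2 length were subtracted per library. The recovered reads went into edgeR 4.0.16 and DESeq2 1.42.0 as alternatives. The limma fit without a block and the trend removal were first tested on simulated data, and the alternatives were not.

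The members and gene lists were chosen with earlier results of these data known. Named genes were KMT2C, all members, up to 2 genes per direction and list with the smallest adjusted p, and the 3 genes most like the member with the largest fold change. Genes outside this rule are those said to be named after their values were seen, PRSS23 and BAALC-AS1, which overlap members' exons, and CDH1, ESAM and KRT19 among the markers, also named after their values were seen. Lists were matched by symbol, and a gene with no row in the table was not analysed.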

Additional observations from a re-analysis of the deposited data

How the results depend on the processing

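Across all alternatives, member fold changes stayed on the same side of the threshold and of 0 in 181 cases, lost the call in 34, gained it in 3 and changed sign in 12. The cause was not tested for any of them. Genes changed numbered 4859 as deposited, 1460 after trend removal and 1314 with trend removal and a replicate block. Without 1 library they ranged from 2151 (without knockout replicate 1) to 6167 (without control replicate 1), with 3162 without control replicate 3 and 2513 without knockout replicate 2. After trend removal the range was 373 to 3586, the extremes again without knockout replicate 1 and control replicate 1. It gave 722 without control replicate 2, 885 without control replicate 3, 417 without knockout replicate 2 and 611 without knockout replicate 3.

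Members called numbered 6 as deposited, 3 after trend removal and 3 with trend removal and the block. Leaving out 1 library gave 5 to 8, and 1 to 4 after trend removal (1 without knockout replicate 1, 2 without control replicate 2 or 3 or knockout replicate 2 or 3). Other receptors called numbered 1 in the main analysis, 2 with a mean of at least 50 or in edgeR, 3 in DESeq2 or with the replicate block, and 0 to 4 without 1 library. WNT ligands called went from 2 to 0 after trend removal, with or without the block, and were 1 to 2 without 1 library. Turnover genes went from 8 to 1 in both, with 2 to 9 without 1 library. Cytoplasmic genes went from 10 to 4, or 5 with the block, with 4 to 15 without 1 library. Nuclear partners went from 6 to 1 in both, with 2 to 7 without 1 library. Targets went from 0 to 2 under quantile normalization and with trend removal and the block, with 0 to 2 without 1 library. Planar polarity genes went from 5 to 3 with trend removal and the block, with 4 to 6 without 1 library.

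FZD4 changed sign under quantile normalization (-0.071), after trend removal with or without the block (-0.091), and without 1 library (-0.097 to 0.094). After trend removal and without 1 library it ran from -0.21 to 0.0053 (control replicates 1, 2 and 3 left out gave -0.034, -0.17 and -0.072, knockout replicates 1 and 3 gave -0.21 and -0.066). ROR1 changed sign after trend removal without control replicate 3 (-0.023) or knockout replicate 2 (-0.017), and KMT2C after trend removal with or without the block (-0.039). The summed Frizzled level differed by -0.20 on the log2 scale (-0.23 to -0.17 without 1 library), and by -0.13 with RefSeq spans.

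Same-numbered libraries deviated together with correlations of 0.066, 0.0063 and 0.13, not all above 0.1, so they were taken to share only a number. Not every library correlated best with its own number. The replicate block gave 6265 genes changed and 7 members called, the added one being ROR1. FZD8 had 103 to 198 reads per library. Its coefficient of variation was 25% in the control (SD 41.7 on a mean of 167) and 13% in the knockout libraries (15.1 on 116). Counting alone gives 8.39% at the mean reads of all 6 libraries.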
